A study of Mus musculus with 24 samples.

Results

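The T cell receptor beta chains described here were those with a long CDR3, of 17 residues or more, in whole tumors of 12 mice. A member was any clonotype (the same CDR3 amino acid sequence, V segment and J segment) without a stop mark, built from sequences with at least 2 counts, whose CDR3 had 17 or more characters as written in the deposited tables. There were 1490 distinct long clonotypes among 47705 distinct beta clonotypes (3.12%), or 1791 among 61362 when each tumor was listed apart. They held 126086 of 7463100 counts (1.69%).

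The tumors grew from CT26.CL25 cells, a mouse colon carcinoma line that carries a model antigen, injected under the skin of both flanks of female BALB/c mice aged 7 to 9 weeks. Each of 4 groups had 3 mice with 2 tumors per mouse, and each tumor gave 1 library. In the time-matched group (mice 6, 12 and 14) both tumors were taken on day 13, without treatment. In the time-separated group (mice 4, 17 and 19) 1 tumor was excised and the other was taken 11 days later, without decitabine. The DAC low group (mice 3, 11 and 20) and the DAC high group (mice 7, 10 and 16) followed the same 11-day interval and received decitabine, an inhibitor of DNA methyltransferases, at 0.5 and 2 mg/kg. Dosing started 3 days after surgery and ran for 5 days, and the last tumor was taken 4 days after the last dose. The tumor excised at surgery was thus taken before dosing. Values averaged over both tumors of a decitabine mouse therefore join an untreated and a treated tumor. Tumors carry a number within their mouse, but the labels leave out which was taken earlier, so no direction in time is given. The RNA came from whole tumors, so the T cell subsets that carried the long chains are not known.

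The CDR3 is the loop of the beta chain that lies over the antigen peptide, and it is the part encoded across the joints of the V, D and J segments. Its length is set by how many bases each segment contributes, how many were trimmed from its ends, and how many bases terminal transferase added at the joints. The beta locus holds a D segment ahead of each of its clusters of J segments, and TRBD2, which lies behind the TRBJ1 cluster, joins by deletion to TRBJ2 segments only. Long beta CDR3s lie at the far end of a length distribution that thymic selection is known to narrow.

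The bases of the following clonotypes are shown because each was the largest long clonotype of its mouse, and because the results on V, D and J segments, on sharing and on the tumors turn on them. Each runs 5′ to 3′ across the whole CDR3. Lower case at the start and the end marks bases that match the start shared by most sequences of that V segment and the end shared by most sequences of that J segment in these files. Capitals mark the bases between, which hold the D segment, the bases added at the joints and any segment end beyond the shared part.
Mouse 19, TRBV17/TRBJ2-2, 20 residues: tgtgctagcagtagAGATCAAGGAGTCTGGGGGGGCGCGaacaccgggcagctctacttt
Mouse 3, TRBV13-2/TRBJ2-4, 18 residues: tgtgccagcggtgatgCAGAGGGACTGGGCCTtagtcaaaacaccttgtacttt
Mouse 12, TRBV17/TRBJ2-1, 17 residues: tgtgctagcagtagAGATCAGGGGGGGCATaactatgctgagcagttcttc
Mouse 6, TRBV5/TRBJ2-1, 17 residues: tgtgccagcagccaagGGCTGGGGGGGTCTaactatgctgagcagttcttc
Mouse 14, TRBV5/TRBJ2-5, 17 residues: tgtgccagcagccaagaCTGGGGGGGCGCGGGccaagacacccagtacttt
Mouse 20, TRBV5/TRBJ1-1, 17 residues: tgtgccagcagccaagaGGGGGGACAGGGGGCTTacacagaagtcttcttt
The bases between numbered 25 in the clonotype of mouse 19, 16 in those of mice 3 and 12, 14 in that of mouse 6, 15 in that of mouse 14 and 17 in that of mouse 20. Of these 6 clonotypes, only that of mouse 20 had a TRBJ1 segment.

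The label was checked against the tables. Of the 1791 long clonotypes listed by tumor, 99.8% had TRB V and J segments, and 90.5% ran from the conserved cysteine (C) to phenylalanine (F), against 89.7% for CDR3s of 12 to 16 residues. The base count was 3 per residue in every retained sequence. No retained CDR3 was longer than 20 residues. At the boundary of the rule, 16 residues made up 13.8% ± 7.23 of clonotypes (mean of mice, SD, n = 12) and 17 residues 1.69% ± 0.965. Lengths of 18, 19 and 20 residues held 0.758%, 0.0595% and 0.502%, and 0.550%, 0.0838% and 0.210% without near-copies, which are defined below.

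**Figure D1:**
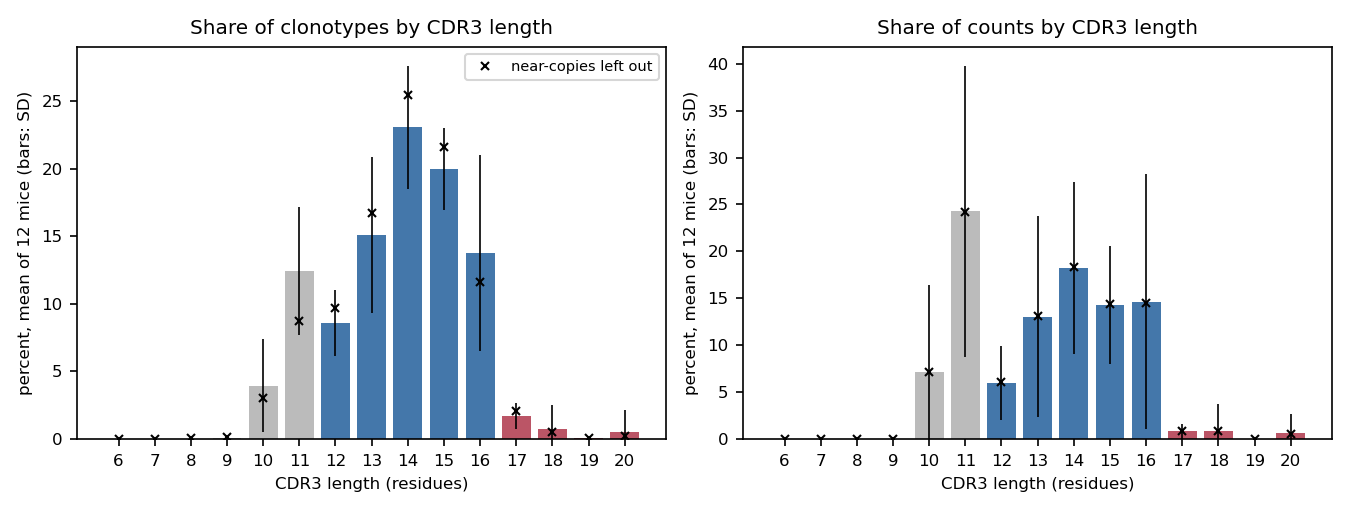
CDR3 length in residues against the share of clonotypes (left) and of counts (right) in percent, as the mean of 12 mice with SD bars cut at 0, with long CDR3s in red, 12 to 16 residues in blue, shorter ones in grey and crosses for values without near-copies. The share of clonotypes drops from 13.8% at 16 residues to 1.69% at 17.

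Many long sequences were near-copies, here sequences 1 base away from a sequence with at least 10 times their counts in the same tumor with the same V, J and length. They made up 52.9% of the 2130 long sequences, against 49.8% of those of 12 to 16 residues, but 6.94% of long counts. The near-copies gathered in 4 mice: they were 80.6% of long sequences in mouse 19, 75.4% in mouse 3, 57.5% in mouse 12 and 55.0% in mouse 6, against 11.0% to 36.7% in the other 8 mice. In tumor 2 of mouse 19, the sequence shown above had 18580 counts and 95 sequences lay 1 base away, of 180 possible single changes. Their median was 10 counts and the highest, G47T (the base of the shown sequence, its position from the start of the CDR3, then the base of the near-copy), had 132 counts, 0.710% of the shown sequence. In mouse 3 the highest near-copy carried G11T in both tumors, with 254 and 132 counts beside 13315 and 6202 of the shown sequence. The origin of these near-copies was not tested, and most results that count clonotypes are therefore given with and without them. Without near-copies there were 892 distinct long clonotypes among 27985.

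The libraries held 63291 to 887567 retained beta counts per tumor. Mice 3 and 19 stood apart by their long share of counts, 10.2% and 8.23% as the mean of their tumors, against 0.134% to 2.59% in the other 10 mice.

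Long CDR3s varied far more in their share of counts than in their share of clonotypes. Among time-matched mice they took 2.19% of counts in tumor 1 and 2.50% in tumor 2 of mouse 6. Mouse 12 had 2.55% and 2.64%, and mouse 14 had 0.646% and 0.387%. The tumors of mouse 14 were thus well below those of the other time-matched mice. Among time-separated mice, mouse 4 had 0.866% and 0.678%, mouse 17 had 0.656% and 0.210%, and mouse 19 had 5.80% and 10.6%. Among DAC low mice, mouse 3 had 9.07% and 11.4%, mouse 11 had 0.617% and 0.369%, and mouse 20 had 1.73% and 0.0996%. The tumors of mice 3 and 19 were the 4 highest of the 24. Among DAC high mice, mouse 7 had 1.10% and 0.671%, mouse 10 had 0.725% and 0.165%, and mouse 16 had 0.213% and 0.0548%. The ranges of all 4 groups overlapped. The exact 95% binomial interval of the lowest share, in tumor 2 of mouse 16, was 0.0479% to 0.0625% and that of the highest, in tumor 2 of mouse 3, 11.2% to 11.7%. These intervals cover counting error only.

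**Figure D2:**
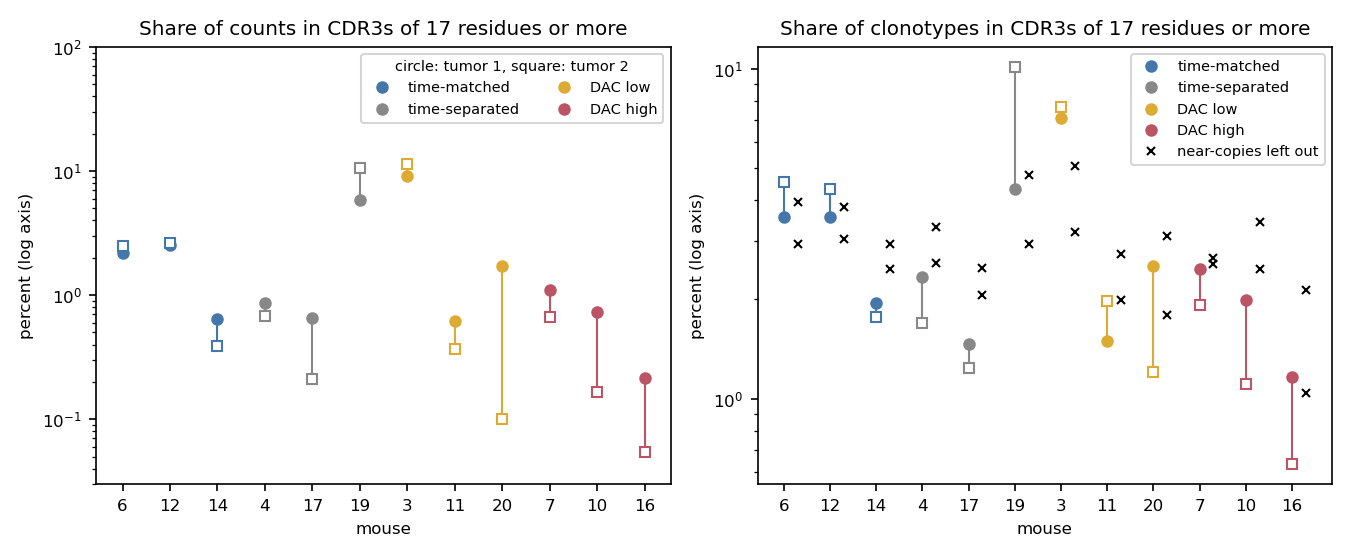
Share of counts (left) and of clonotypes (right) in CDR3s of 17 residues or more, in percent on log axes, for each tumor of the 12 mice, coloured by group, with filled circles for tumor 1, open squares for tumor 2 and, on the right, crosses for both tumors without near-copies. The share of counts spreads from 0.0548% to 11.4%, that of clonotypes from 0.633% to 10.2%, and that of clonotypes without near-copies from 1.04% to 5.08%.

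The group means of the share of counts did not differ beyond the spread between mice. The mean was 1.82% ± 1.13 (SD, n = 3 mice) in time-matched mice, 3.14% ± 4.40 (n = 3) in time-separated mice, 3.88% ± 5.51 (n = 3) in DAC low mice and 0.488% ± 0.377 (n = 3) in DAC high mice. Time-matched minus time-separated was -1.32 percentage points (exact permutation test, two-sided, p = 0.9), and the smallest p that 3 against 3 mice can give is 0.1. Against all 9 mice with an interval of 11 days, decitabine mice included, the difference was -0.686 points (exact permutation test, two-sided, p = 0.986). This contrast joins the interval with the treatment. The 3 groups with the interval of 11 days spanned 3.39 points between their highest and lowest mean (exact permutation of mice over groups, with the between-group sum of squares as statistic, p = 0.421). Each decitabine mean joins tumors taken before and after dosing, so this p does not test the dose. The difference to the time-separated mice turned to 1.22 points when mouse 19 was left out. Without mouse 3 the difference to the 9 mice turned to 0.281 points, and without mouse 19 to 0.0296 points.

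The tumors of a mouse differed in their long share of counts by 0.219 points ± 0.115 (SD, n = 3) in time-matched mice and by 1.20 points ± 1.56 (SD, n = 9) in the 9 mice with an interval of 11 days. The difference of -0.984 points was not larger than the spread (exact permutation test, two-sided, p = 0.309). Against the 3 time-separated mice alone it was -1.61 points (exact permutation test, two-sided, p = 0.3), and -0.0980 points without mouse 19. Against the 9 mice it was -0.529 points without mouse 19. With the largest long clonotype of each mouse left out, it was -0.324 points against the 9 mice (exact permutation test, two-sided, p = 0.0727) and -0.255 against the 3 (exact permutation test, p = 0.1, which is the lowest that 3 against 3 mice allow). Leaving out those clonotypes also brought the difference in the share of counts from -1.32 to -0.416 points, that against the 9 mice from -0.686 to -0.215, and the span of the 3 groups from 3.39 to 0.591 points, none of them past the threshold.

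As a share of clonotypes, with every library thinned to 63291 counts, long CDR3s made up 3.32% ± 1.01 (SD, n = 3) in time-matched mice and 3.60% ± 3.09 (SD, n = 3) in time-separated mice (exact permutation test, two-sided, p = 1). Over all 12 mice the share was 3.08% ± 2.11, with a range of 1.16% to 7.31%. Without near-copies it was 2.97% ± 0.617 (SD, n = 12) and ran from 1.91% to 4.01%. The time-matched mice then stood at 3.33% ± 0.181 (SD, n = 3). The 9 mice with an interval of 11 days, decitabine mice included, stood at 2.85% ± 0.671 (exact permutation test against the time-matched mice, two-sided, p = 0.25).

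A few clonotypes set the share of counts. The largest long clonotype held 87.6% of the long counts in tumor 2 of mouse 3, 86.9% in tumor 2 of mouse 19, and 12.8% in tumor 1 of mouse 4, the lowest of all tumors. In both tumors of mice 3, 6, 12 and 19 and in 1 tumor each of mice 7, 11 and 14, a lone clonotype made up at least 50% of the long counts. Of the 1791 long clonotypes listed by tumor, 68 had 100 counts or more.

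The largest long clonotype of mouse 19, of TRBV17 and TRBJ2-2 with 20 residues, had 3748 counts in tumor 1 and 19050 in tumor 2. These were 3.83% of counts (exact 95% interval 3.71% to 3.95%) and 9.26% (9.13% to 9.38%), ranks 3 and 2 among all beta clonotypes of those tumors. It was also the most abundant CDR3 of 20 residues, the greatest length retained. Of all named clonotypes it had the largest difference between the tumors of a mouse, 5.42 percentage points. The largest of mouse 3, of TRBV13-2 and TRBJ2-4 with 18 residues, took 7.28% (7.16% to 7.40%) and 9.98% (9.75% to 10.2%) and ranked 4 and 3.

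The largest long clonotypes of the time-matched mice were in both tumors at like levels in mice 6 and 12. That of mouse 12, of TRBV17 and TRBJ2-1, had 10953 and 12851 counts, or 2.16% and 2.13%. That of mouse 6, of TRBV5 and TRBJ2-1, had 8408 and 5702 counts, or 1.43% and 1.52%. In mouse 14 the clonotype of TRBV5 and TRBJ2-5 had 2173 and 1054 counts, 0.361% and 0.173%.

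In the mice with an interval of 11 days, some named clonotypes were found in 1 tumor only. In mouse 20 the clonotype of TRBV5 and TRBJ1-1 had 742 counts in tumor 1 (0.551%) and 0 of 96406 in tumor 2, which allows a share of up to 0.00311%. In mouse 11 a clonotype of TRBV1 and TRBJ2-1 with 19 residues had 0 of 199081 counts in tumor 1, a share of up to 0.00151%, and 184 in tumor 2 (0.186%). In mouse 4 a clonotype of TRBV19 and TRBJ2-1 had 0 of 173813 in tumor 1, a share of up to 0.00173%, and 261 in tumor 2 (0.154%). Each of these 3 clonotypes stood far above the limit of the tumor in which it was not found.

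The named clonotypes of mice 7, 10, 16 and 17 were found in both tumors at unequal shares. In mouse 10 the clonotype of TRBV2 and TRBJ2-4 with 18 residues had 386 and 2 counts. In mouse 7 that of TRBV1 and TRBJ1-6 had 1229 and 29 counts, 0.434% and 0.0452%, while that of TRBV19 and TRBJ2-5 had 687 and 244, 0.242% and 0.380%, the order of the tumors turning between them. In mouse 16 that of TRBV5 and TRBJ2-2 had 509 and 33 counts, and in mouse 17 that of TRBV5 and TRBJ2-3 had 294 and 51. With 1 library per tumor, the differences of single clonotypes have no replicate, and their intervals cover counting error only.

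**Figure D3:**
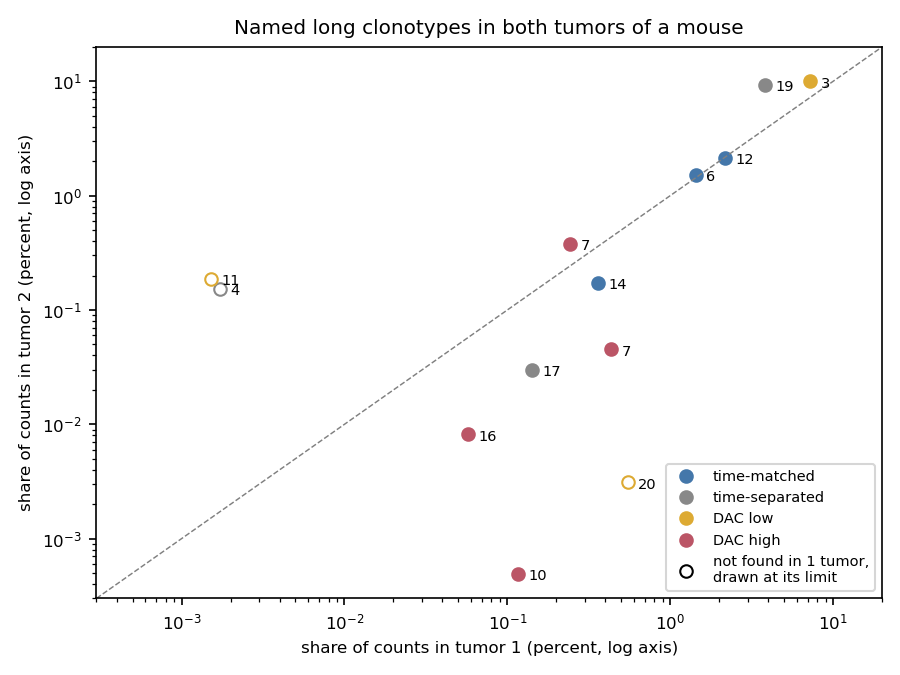
Share of counts in tumor 1 against tumor 2, in percent on log axes, for the 13 long clonotypes named as the largest of a mouse or as most different between its tumors, numbered by mouse and coloured by group, with open circles drawn at the limit of 3 counts where a tumor had none. Those of mice 6 and 12 lie on the dashed line of equal shares, and those of mice 4, 11 and 20 were not found in 1 tumor.

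Long CDR3s used other V segments than CDR3s of 12 to 16 residues of the same tumors. Of 17 V segments tested by exact permutation test by sign flipss over the 12 mice with Benjamini-Hochberg adjustment, 9 passed (52.9%), 2 higher and 7 lower among long clonotypes. TRBV5 made up 20.6% ± 10.5 of long clonotypes and 7.59% ± 1.33 of the others (means of mice, SD, n = 12), higher in 10 of 12 mice (exact permutation test, adjusted p = 0.00553). TRBV16 made up 4.39% ± 2.78 and 1.41% ± 0.632, higher in 10 of 12 mice (exact permutation test, adjusted p = 0.00934).

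TRBV13-1, the V segment most used by CDR3s of 12 to 16 residues, made up 6.51% ± 4.99 of long clonotypes and 20.8% ± 7.97 of the others. It was lower in 12 of 12 mice (exact permutation test, adjusted p = 0.00332). Without near-copies its shares were 8.66% ± 4.70 and 14.8% ± 3.10, a smaller difference of -6.15 points, lower in 11 of 12 mice (exact permutation test, adjusted p = 0.00549). TRBV13-3 made up 3.90% ± 2.80 and 7.93% ± 2.52 and was lower in 10 of 12 mice (exact permutation test, adjusted p = 0.0148). TRBV20 made up 0.653% ± 1.11 and 3.82% ± 1.22 and was lower in 11 of 12 mice (exact permutation test, adjusted p = 0.00332). TRBV31, TRBV14, TRBV29 and TRBV15 were also lower. TRBV13-2 had 16.4% ± 22.2 of long clonotypes and 10.9% ± 3.15 of the others and did not pass (exact permutation test, adjusted p = 0.711). Its medians over mice were 11.1% in both, and in mouse 3 it reached 84.9% of long clonotypes.

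Without near-copies the same 9 V segments passed, and TRBV2 (5.75% ± 3.03 and 3.68% ± 0.632) and TRBV4 (2.67% ± 2.10 and 5.74% ± 1.19) were added, so 11 of 18 passed (61.1%). TRBV5 was then higher in 12 of 12 mice, at 19.4% ± 5.39 against 9.12% ± 0.996 (exact permutation test, adjusted p = 0.0022). For CDR3s of 18 residues or more the TRBV5 difference fell to 7.13 points and did not pass (exact permutation test, adjusted p = 0.0898). At that length TRBV15, TRBV29 and TRBV13-3 did not pass either (exact permutation tests, adjusted p = 0.586, 0.162 and 0.0769), with differences of -1.05, -1.99 and -4.92 points beside -1.36, -2.03 and -4.04 for 17 residues or more. TRBV16 rose from a difference of 2.98 to one of 11.2 points (exact permutation test, adjusted p = 0.0419). TRBV4 was lower at that length and passed (exact permutation test, adjusted p = 0.00781).

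With the counts of all tumors pooled, in which deep libraries weigh more, the leading V segments of long CDR3s were TRBV17 (43.8%), TRBV5 (20.6%) and TRBV13-2 (20.2%). As means of mice the order changed, with TRBV5 at 29.6% ± 23.4, TRBV17 at 16.6% ± 33.2 and TRBV13-2 at 14.2% ± 25.9 (SD, n = 12). The pooled shares rested on few mice: mouse 19 held 46.0% of the TRBV17 counts, mouse 6 held 58.7% of the TRBV5 counts and mouse 3 held 87.8% of the TRBV13-2 counts. TRBV17 did not pass by clonotypes, with 14.2% ± 23.6 against 7.50% ± 4.67 (exact permutation test, adjusted p = 0.52). Its medians over mice went the other way, 2.79% against 6.89%, and it was lower among long clonotypes in 7 of 12 mice. The highest mouse had 72.6%.

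Of 12 J segments tested in the same way, 3 passed (25%), all lower in long clonotypes. TRBJ2-7 made up 2.97% ± 1.98 of long clonotypes and 16.0% ± 3.64 of the others, lower in 12 of 12 mice (exact permutation test, adjusted p = 0.00586). TRBJ1-1 made up 2.33% ± 2.87 and 6.97% ± 1.76 (exact permutation test, adjusted p = 0.00879), and TRBJ1-2 made up 1.12% ± 1.85 and 5.00% ± 1.96 (exact permutation test, adjusted p = 0.0137). TRBJ2-2 reached 15.8% ± 19.2 against 5.77% ± 2.03, higher in 10 of 12 mice, without passing (exact permutation test, adjusted p = 0.063), and mouse 19 alone had 73.1%. With single-count sequences kept, TRBJ1-1 and TRBJ1-2 did not pass (exact permutation tests, adjusted p = 0.117 and 0.389), nor did they by counts (adjusted p = 0.893 for both by the exact permutation test).

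Without near-copies 5 of 12 J segments passed (41.7%), including the same 3. TRBJ2-2 then stood at 14.1% ± 11.1 against 5.83% ± 0.893 (exact permutation test, adjusted p = 0.00586). TRBJ2-3 stood at 16.8% ± 6.00 against 9.48% ± 1.13, higher in 12 of 12 mice (exact permutation test, adjusted p = 0.00195). The TRBJ2 cluster as a whole took 79.1% ± 9.62 of long clonotypes and 70.9% ± 4.82 of the others, a difference of 8.19 points (exact permutation test by sign flips, p = 0.0215), of 5.49 points without mice 3 and 19, and of 9.40 points without near-copies (exact permutation test, p = 0.00195). The call was lost with single-count sequences kept (7.52 points, exact permutation test, p = 0.0718) and for 18 residues or more (1.82 points, exact permutation test, p = 0.719). By pooled counts, TRBJ2-1 (35.6%), TRBJ2-2 (25.5%) and TRBJ2-4 (20.2%) led (23.3% ± 28.6, 14.4% ± 23.5 and 14.7% ± 25.9 as means of mice), and mice 12, 19 and 3 in turn held 56.9%, 79.3% and 88.4% of those counts.

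The largest difference of any segment, in percentage points, was that of TRBD2 among the D calls of the deposited tables. TRBD2 made up 65.1% ± 14.6 of long clonotypes and 38.4% ± 4.15 of the others, higher in 12 of 12 mice (exact permutation test, adjusted p = 0.00146). TRBD1 made up 31.3% ± 13.2 and 45.7% ± 4.86 (exact permutation test, adjusted p = 0.00684), and clonotypes without a D call 3.59% ± 5.72 and 15.9% ± 2.80 (exact permutation test, adjusted p = 0.00146). All 3 classes tested thus passed (100%), and their shares add up, so they are not independent. Without near-copies the 3 classes passed too (100%), with TRBD2 at 62.1% ± 9.83 and 35.6% ± 1.74, TRBD1 at 34.3% ± 9.47 and 47.0% ± 1.85, and no call at 3.62% ± 3.58 and 17.3% ± 1.59. For TRBD1 the difference was -14.4 points, and -12.4 for 18 residues or more (exact permutation test, adjusted p = 0.0508) and -15.7 by counts (exact permutation test, adjusted p = 0.114), where the call was lost. A D call needs bases between the V and J parts, of which long CDR3s had more (values below), and the part of this in the result was not tested.

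Among clonotypes with a TRBJ2 segment, to which both D segments can join, TRBD2 was called in 79.8% ± 10.7 of long ones and 50.3% ± 5.07 of the others, a difference of 29.5 points in the same direction in 12 of 12 mice (exact permutation test by sign flips, p = 0.000488, the smallest that 12 mice can give). Without near-copies the difference was 30.2 points, with the same p by that exact permutation test. Counting clonotypes with a D call only, TRBD2 had 1285 long TRBJ2 clonotypes and TRBD1 had 189, so that 87.2% were TRBD2, against 57.6% at 12 to 16 residues. Without near-copies the numbers were 601 and 140, and 81.1% were TRBD2, against 56.3%. TRBD2 was also called beside a TRBJ1 segment, in 13 of 295 long clonotypes (4.41%) and in 9.74% of the TRBJ1 clonotypes of 12 to 16 residues. Joining by deletion does not give such pairs, so a single D call is uncertain.

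**Figure D4:**
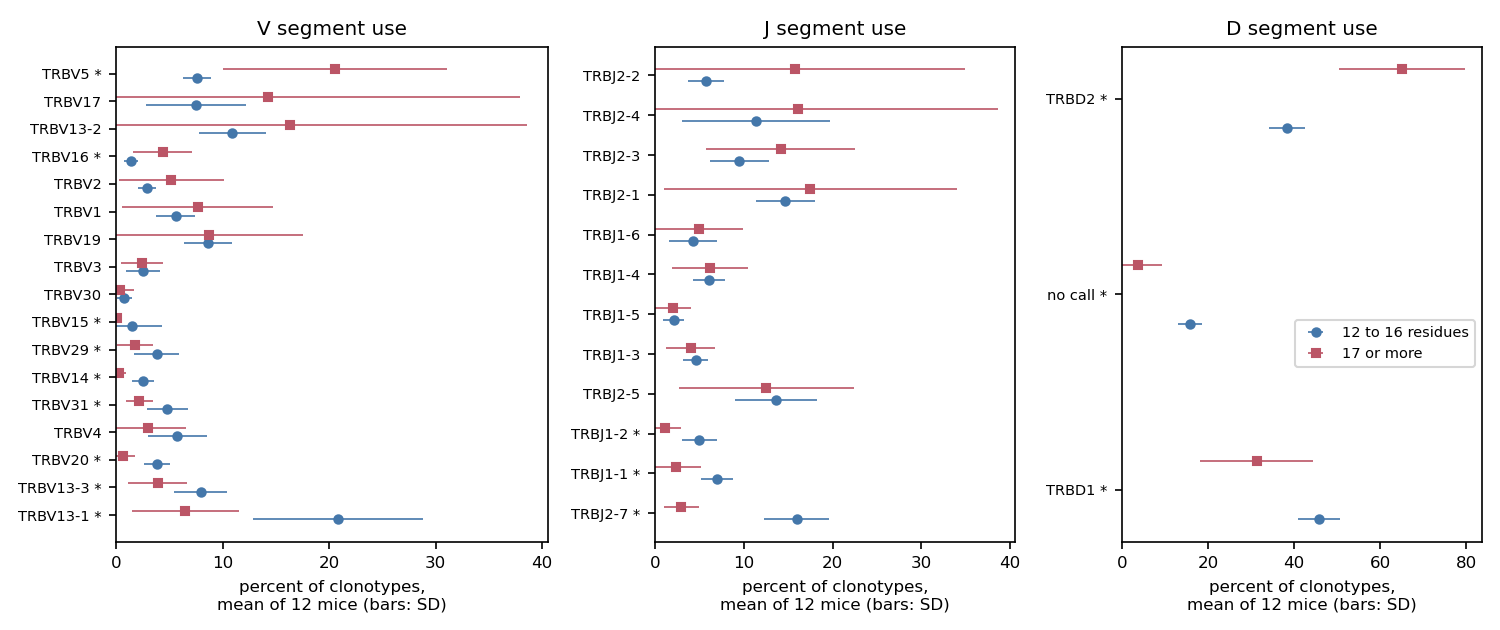
Share of clonotypes in percent with each V segment (left), J segment (middle) and D call (right), as means of 12 mice with SD bars cut at 0, in long CDR3s (red squares) and CDR3s of 12 to 16 residues (blue circles), with a star for an adjusted p under 0.05. TRBV5, TRBV16 and TRBD2 are higher in long CDR3s, and TRBV13-1, TRBJ2-7 and TRBD1 are lower.

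The bases shared within a segment are shown for 6 segments that differed between long and other CDR3s without near-copies (TRBJ2-2 and TRBJ2-3 did not pass with all sequences), so that their lengths can be compared. For a V segment this is the start of the CDR3 that most sequences carried, and for a J segment its end, both derived from these files without near-copies.
TRBV5: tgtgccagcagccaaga
TRBV16: tgtgcaagcagcttaga
TRBV20: tgtggtgctaggga
TRBJ2-2: caaacaccgggcagctctacttt
TRBJ2-3: tagtgcagaaacgctgtatttt
TRBJ2-7: agctcctatgaacagtacttc
TRBV5 and TRBV16 had shared starts of 17 bases, TRBV13-1 of 16 and TRBV20 and TRBV14 of 14. Near-copies were left out of the shares of sequences given here. Of the sequences with these V segments, 6.21% of TRBV5, 9.06% of TRBV16, 1.82% of TRBV13-1, 0.661% of TRBV20 and 0.750% of TRBV14 were long. With near-copies kept, the long shares of clonotypes listed by tumor were 7.40%, 6.60%, 0.799%, 0.423% and 0.410% in the same order. TRBV2, whose shared start has the same 17 bases as that of TRBV5, had 5.12% long sequences. Over the 19 V segments with at least 100 sequences, the share of long sequences and the length of the shared start had a Spearman rho of 0.68, and over 12 J segments rho was 0.63. Single segments went against it: TRBV15 had a shared start of 16 bases and 0.599% long sequences, and TRBJ2-7 and TRBJ2-1 both had shared ends of 21 bases but 0.623% and 3.55% long sequences. The segments share libraries and mice, so no test was made.

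Across long sequences without near-copies, 13.9 ± 0.770 bases matched the shared start of the V segment, 19.6 ± 0.777 the shared end of the J segment, and 18.6 ± 2.23 lay between (means of mice, SD, n = 12). In CDR3s of 12 to 16 residues these were 12.8 ± 0.185, 17.7 ± 0.240 and 11.8 ± 0.627 bases. The extra length of long CDR3s thus lay mostly between the segments, by 6.83 bases, with 1.87 bases more in the J part and 1.14 in the V part. The total is set by the choice of length and is a description. At 16 residues, just outside the rule, 16.1 ± 1.91 bases lay between.

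Near-copies were also left out of a search for runs of bases, which left 921 long sequences and 26333 of 12 to 16 residues. The run CTGGGGGG was the most frequent 8 bases between the V and J parts of TRBD2-called CDR3s of 12 to 16 residues. It was found in 342 of 569 TRBD2-called long sequences (60.1%) and in 2789 of 9370 TRBD2-called sequences of 12 to 16 residues (29.8%). Over all long sequences it was found in 37.4% ± 9.24 (mean of mice, SD, n = 12), from 25.6% to 55.4%, and over all those of 12 to 16 residues in 10.6% ± 1.21, from 8.14% to 12.5%. It stands in the clonotypes of mice 19, 6 and 14 shown above. For TRBD1 the corresponding 8 bases were GGACAGGG, found in 39.4% of TRBD1-called long sequences and 17.4% of those of 12 to 16 residues. The search was on the coding strand only, and a longer stretch between the segments has more room for any run.

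Residue use in the middle of the CDR3 (without the 4 residues at its start and the 6 at its end) differed for few residues. Of 18 residues tested, 1 passed (5.56%): threonine made up 3.32% ± 1.63 in long and 6.13% ± 1.69 in other clonotypes (exact permutation test, adjusted p = 0.0439). Without near-copies 2 of 18 passed (11.1%), threonine at 3.82% ± 0.954 against 6.34% ± 0.746, and leucine at 7.33% ± 2.53 against 5.23% ± 0.466, higher in 12 of 12 mice (exact permutation test, adjusted p = 0.00439 for both). With all sequences, leaving out any 1 of mice 4, 6, 7, 10, 11, 12, 14, 17 and 20 left 0 residues that passed, and leaving out mouse 19 gave 3.

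Clone size did not separate long from other CDR3s. The median was 3.33 ± 0.739 log2 counts for long clonotypes and 3.03 ± 0.287 for those of 12 to 16 residues (means of mice, SD, n = 12). The difference was 0.30 on the log2 scale, with 8 of 12 mice above 0 (exact permutation test by sign flips, p = 0.258). Without near-copies the medians were 3.93 ± 0.699 and 4.04 ± 0.524, a difference of -0.10 (exact permutation test, p = 0.309), so that the direction turned.

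Among the 100 largest clonotypes of a tumor, long CDR3s were less frequent than among all clonotypes. They held 2.46% ± 1.78 of those places and 3.01% ± 2.22 of all clonotypes, and 10 of 12 mice were lower (exact permutation test by sign flips, p = 0.0103). The difference was -0.55 points, -0.69 without near-copies (exact permutation test, p = 0.00439) and -0.36 for 18 residues or more (exact permutation test, p = 0.144). Tumors 2 of mice 16 and 20 had no long clonotype among their 100 largest, and tumors 2 of mice 3 and 19 had 8 each. All lengths entered this comparison, shorter CDR3s included. Those of 11 residues made up 12.4% of clonotypes and 24.3% of counts (means of mice). The share of 12 to 16 residues among the 100 largest is not given, so the lower frequency is not shown to be particular to long CDR3s.

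Presence in the other tumor of the same mouse, called persistence here, was not shown to differ with length over the 12 mice. Of long clonotypes 25.9% ± 16.1 were found again, against 28.4% ± 7.15 of those of 12 to 16 residues, in libraries thinned to equal depth (SD, n = 12). The difference of -2.46 points had 9 of 12 mice below 0 (exact permutation test by sign flips, p = 0.606). The mice with the largest values on the other side were mouse 3, with 55.6% of long clonotypes against 27.7%, and mouse 19, with 43.0% against 13.5%. Without these 2 mice, with the others thinned anew to their own lowest depth, the difference was -9.04 points. The mice were left out after their values were seen, so no test is given.

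Near-copies moved with this result. Without them the difference was -2.44 points (exact permutation test, p = 0.224), and 21.7% of long clonotypes of mouse 3 and 15.0% of those of mouse 19 were found again, against 19.1% and 12.2% of the others. Without near-copies and without mice 3 and 19 it was -3.94 points, again with no test. Measured by counts in place of clonotypes, it was -25.1 points (exact permutation test, p = 0.0293).

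Clone size was also matched coarsely, at full depth, in classes of 2 to 9, 10 to 99, and 100 or more counts. A class was used where the tumor had at least 5 long clonotypes in it. Within these classes the difference was -2.90 points (exact permutation test by sign flips, p = 0.576). It was -10.0 points without mice 3 and 19, for which no test is given for the same reason. Without near-copies it was -1.72 points (exact permutation test, p = 0.373). Pooled over mice, clonotypes of 100 counts or more were found again in 45 of 68 cases among long CDR3s (66.2%). At 12 to 16 residues they were found again in 68.7% of cases. As means of mice these values were 61.1% ± 40.5 and 72.3% ± 16.8 (SD, n = 12). Clonotypes of 10 to 99 counts stood at 32.0% ± 16.8 and 32.1% ± 7.94 as means of mice. Clonotypes of 2 to 9 counts were found again in 29.7% and 26.9% when pooled over mice, but in 22.2% ± 18.7 and 28.0% ± 9.38 as means of mice (SD, n = 12). Without near-copies, the pooled values were 62.3% and 65.0% at 100 counts or more, and 9.85% and 14.2% at 2 to 9 counts. As means of mice they were 60.7% ± 40.3 and 70.0% ± 17.7, and 8.53% ± 6.50 and 14.7% ± 5.05 (SD, n = 12).

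Long clonotypes of time-matched mice were found again at 31.1% ± 12.1 (SD, n = 3), from 19.5% in mouse 14 to 43.7% in mouse 12. In time-separated mice it was 27.1% ± 16.9 (n = 3), in DAC low mice 22.0% ± 29.2 (n = 3) and in DAC high mice 23.4% ± 7.62 (n = 3). Without near-copies the order of the groups changed, with 23.6% ± 4.45 in time-matched, 18.2% ± 10.4 in time-separated, 11.0% ± 9.44 in DAC low and 26.4% ± 9.65 in DAC high mice (SD, n = 3 each). With all sequences the lowest were mice 11, 20 and 4, with 3.10%, 7.31% and 9.37%. The time-matched mice differed from the time-separated mice by 4.03 points (exact permutation test, two-sided, p = 0.7). They differed from all 9 mice with an interval of 11 days, decitabine mice included, by 6.95 points (exact permutation test, two-sided, p = 0.55). Leaving out mouse 4 turned the difference between time-matched and time-separated mice to -4.52 points, and leaving out mouse 12 turned it to -1.03 points.

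Long clonotypes were rarely found in a second mouse. In libraries thinned to equal depth, 1.22% ± 0.772 of the long clonotypes of a mouse were found in another mouse, against 8.92% ± 1.09 of those of 12 to 16 residues (SD, n = 12). The difference of -7.70 points had the same direction in 12 of 12 mice (exact permutation test by sign flips, p = 0.000488, the smallest that 12 mice can give). Without near-copies it was -8.05 points, with the same p by the exact permutation test. It was smaller, in the same direction, with clonotypes defined by their bases (-2.66 points) and with single-count sequences kept (-5.00 points). Sharing is mutual, so the mice are not fully independent in this test.

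**Figure D5:**
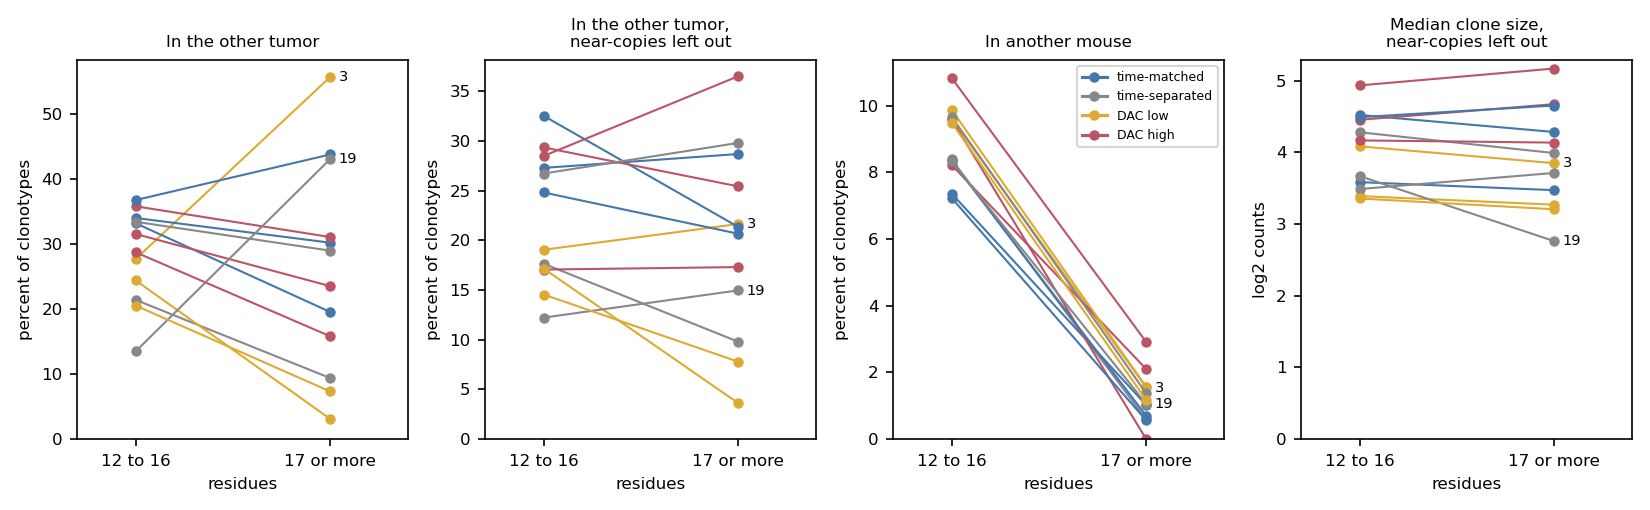
Percent of clonotypes found in the other tumor of the mouse (with and without near-copies), percent found in another mouse, and median log2 counts without near-copies, each for 12 to 16 residues and for 17 or more, with 1 line per mouse coloured by group. Mice 3, 12 and 19 rise in the panel with near-copies, and all 12 mice fall in the sharing panel.

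At full depth, 7 of the 1490 distinct long clonotypes (0.470%) were in more than 1 mouse, against 1512 of 39925 at 12 to 16 residues (3.79%). None of the 7 was found in more than 6 mice, whereas 2 clonotypes of 12 to 16 residues were found in 12. The most widespread were those named above as the largest of mice 19 and 3. The clonotype of TRBV17 and TRBJ2-2 was found in 6 mice, with 34 counts in tumor 1 of mouse 3 and 2 or 3 counts in tumors of mice 6, 10, 16 and 17, beside 19050 in mouse 19. The clonotype of TRBV13-2 and TRBJ2-4 was found in 5 mice, with 2 to 4 counts in mice 6, 12, 14 and 19 beside 13530 in mouse 3. In each of these mice the leading base sequence was identical to the one shown for mice 19 and 3, across 60 and 54 bases.

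Of the 5 found in 2 mice, the one with the highest summed share, of TRBV3 and TRBJ2-4 with 17 residues, was in mice 3 and 20 with 32 and 3 counts and also with identical bases:
Mice 3 and 20, TRBV3/TRBJ2-4: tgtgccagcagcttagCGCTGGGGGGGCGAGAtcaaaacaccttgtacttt
The other 4 shared long clonotypes were each in 2 mice and had a different leading base sequence in each mouse. Those 4 were of TRBV4 and TRBJ2-3, TRBV1 and TRBJ2-2, TRBV5 and TRBJ1-4, and TRBV5 and TRBJ2-4, all of 17 residues. Whether identical bases at low counts came from separate rearrangements or from sequences that passed between libraries was not tested.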

How the data were processed

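Beta chain libraries of 24 tumors, 1 per tumor, were used. The authors made 1 count per receptor sequence with the Cogent NGS Immune Profiler (version 2.0) and deposited the counts without normalization. The paper states that this software ran an analysis based on molecular identifiers. Whether reads with the same identifier were merged in the deposited counts, and which germline reference was used, are not given in the sources used here. Alpha chain tables were not used here.

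Sequences with a stop mark or fewer than 2 counts were left out. The group comparison of clonotype shares, persistence over all sizes and sharing between mice used libraries thinned to 63291 counts (20 draws, seed 20). Alternatives that changed the retained counts or the mice, such as leaving out near-copies, were thinned to their own smallest library. Near-copies and single counts were removed at full depth, before thinning. All other values, with the clonotype shares of single tumors, those beside the 100 largest clonotypes, persistence within size classes and the numbers of shared clonotypes, used all retained counts. The values of both tumors were averaged, so the mouse was the replicate. Pairs (long minus 12 to 16 residues) were tested by flipping the signs of the 12 mouse differences in every combination (exact permutation test), and groups with exact permutation tests of 1 value per mouse. The smallest p is 0.1 for 3 against 3 mice and 0.00455 for 3 against 9. Segments and residues were tested where they made up at least 0.5% of clonotypes, with Benjamini-Hochberg adjustment within each kind. Limits of a count of 0 were taken as 3 counts. Shared starts and ends of segments were extended base by base while at least 60% of the sequences still matching carried the same base. No 2 libraries held identical values.

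The clonotypes named were the largest long one of each mouse (mean share of its tumors) and the 3 in most mice (ties by summed share). The one with the largest difference between tumors was named in each of the 9 mice with an interval of 11 days. The longest with at least 10 counts (the most abundant of those tied) was named too. Named segments were those that passed and those that led by counts. The members, lists and tests were chosen with earlier results of these data known. The alternatives changed the minimum count, length limit, depth, clonotype definition, comparison lengths, weighting, largest clonotypes and mice. The alternatives on near-copies, complete CDR3s and mice 3 and 19 were added after the data were seen, and so was the rule for near-copies. The functions were tested on simulated data. The tools were pandas 2.3.3 and numpy 2.4.6 for tables, scipy 1.17.1 for intervals and matplotlib 3.10.9 for figures, under Python 3.11.15.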

Additional observations from a re-analysis of the deposited data

Results flagged for a closer look

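In tumor 2 of mouse 19 (time-separated), long CDR3s made up 10.2% of clonotypes, far from the other 5 tumors of its group, and without near-copies no tumor of that group stood out. In tumor 1 of mouse 3 (DAC low) there were 195 long clonotypes, likewise far above the other 5 tumors of its group, and 71 without near-copies. Such a gap arises by chance in about 1 group in 20, and the tumors of a mouse are not independent. Outside the comparisons, 16 sequences without a stop mark were longer than 20 residues, up to 26 residues, and all had 1 count.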

How the results depend on the processing

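The lower sharing between mice and the higher TRBD2 share within TRBJ2 kept their direction and call under every alternative run, although sharing ran from -10.2 points (against all CDR3s of 16 residues or fewer) to -2.66 (clonotypes defined by bases). Leaving out 1 mouse at a time gave 27.5 to 31.4 points for TRBD2 within TRBJ2, -7.47 to -7.06 for sharing, 9 to 10 V segments, 3 to 4 J segments and 0 to 3 residues. For the group differences it gave -2.68 to 1.22 points (share of counts, 3 against 3), -1.07 to 0.281 (against 9), -1.32 to 1.49 (share of clonotypes) and -4.52 to 12.0 (persistence). The turned values were 1.22, 0.0296 and 1.49 without mouse 19, 0.281 without mouse 3, 0.303 without mouse 14, -4.52 without mouse 4 and -1.03 without mouse 12. Persistence against 12 to 16 residues ran from -5.43 to -0.814 points, and the top 100 difference from -0.646 to -0.444.

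With single-count sequences kept, 1 J segment and 0 residues passed and the TRBJ2 difference was 7.52 points (exact permutation test, p = 0.0718). With at least 10 counts per clonotype, clone size turned to -0.087 log2, persistence within size classes to 1.79 points, and 0 residues passed. At 18 residues or more, the top 100 difference was -0.36, TRBJ2 1.82 points (call lost), residues 0, V segments 7 (4 of the 9 lost), persistence -10.7 points and -9.99 within size classes, time-matched minus time-separated -2.52 points by counts (exact permutation test, p = 0.1, the smallest possible), and the time-matched differences turned to -27.3 and -15.2 points (persistence, against 3 and 9 mice) and -1.26 (share of clonotypes, against 9). Among CDR3s of at least 12 residues, the count share against 9 mice turned to 0.255 points, and against all CDR3s of 16 residues or fewer 0 residues passed. By counts, 1 J segment passed and persistence differed by -25.1 points. Without near-copies, clone size turned to -0.10 and the clonotype share of time-matched against time-separated mice to 0.328, and 5 J segments and 2 residues passed. Without mice 3 and 19, persistence differed by -9.04 points, and by -10.0 within size classes, TRBJ2 by 5.49, and time-matched minus time-separated turned to 1.22 (counts) and 1.50 (clonotypes), and stood at 1.24 and 1.53 against the 7 other mice with the interval of 11 days. Mice 3 and 19 were left out after their high long share and persistence were seen, so none of these values is a test. Without near-copies and these mice, clone size was -0.0099, with 5 J segments and 3 residues. The causes were not tested. The groups share no mouse, and no replicate number pairs them. With 3 mice per group and few long clonotypes in some tumors (10 in the lowest), small group differences were not detectable.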
